A study of Homo sapiens with 6 samples.

Results

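The 10 genes described here encode enzymes that release fatty acids from stored or circulating fat, with the proteins that coat, activate or fill the lipid droplet. They are LPL, MGLL, LIPE, PNPLA2, LIPA, LIPG, PLIN2, PLIN3, ABHD5 and DGAT1, taken by symbol from a table of raw read counts for 31413 genes. RNA came from C42, an established human line of prostate cancer that descends from LNCaP and is often spelled C4-2, grown in RPMI medium with 10% serum. The cells carried a control shRNA (shCTR, 3 libraries, numbered 1, 2 and 4) or an shRNA against NSD2, also named WHSC1 (shNSD2, 3 libraries, numbered 1, 2 and 3). NSD2 is the enzyme that dimethylates histone H3 at lysine 36. The labels give no shRNA sequence and no number of shRNAs or clones, so the knockdown is that of an unspecified construct in a single line. Nor do they state that each library was its own culture, and p-values may therefore reflect technical spread only.

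A cell stores fatty acids as triglyceride in lipid droplets and frees them again in steps. DGAT1 makes the triglyceride, perilipins such as PLIN2 and PLIN3 coat the droplet, and PNPLA2, LIPE and MGLL remove the fatty acids in turn, with ABHD5 as the activator of PNPLA2. LPL and LIPG work outside the cell on lipoproteins, and LIPA works inside the lysosome. In prostate cancer cells, fatty acids from these sources feed membranes and oxidation.

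Total counts were 19412896 to 20665494 per library. NSD2 itself dropped by 1.30 in log2 terms in shNSD2 (edgeR quasi-likelihood test, adjusted p = 8.03e-05). Of 17160 genes tested, 30.7% were called at an adjusted p under 0.05, 15.5% higher and 15.2% lower. The control libraries were uneven: 8262 genes were called without shCTR 4 against 5263 with it, so the value without that library is given for each of the 10 genes that was tested. All 10 markers of prostate luminal cells were tested, 2 higher and 2 lower, and their summed level was 12016 to 13577 CPM in shCTR and 11328 to 11714 CPM in shNSD2, where CPM is a count relative to the size of its library, scaled by TMM. Markers of basal cells summed to 0.714 to 2.10 CPM over all libraries. Those of macrophages summed to 1.13 to 1.76 CPM over 5 rows, of which CSF1R (1.24 CPM in shCTR and 0.788 CPM in shNSD2) held the most. Adipocyte markers, of which 5 of 10 had a row, summed to 4.25 to 4.96 CPM in shCTR and 6.37 to 7.08 CPM in shNSD2, and CFD was the 1 of 4 tested that was called. That list shares LIPE with the genes described here, and LEP, a defining adipocyte gene, was at 0.0324 CPM in shCTR and 0.0666 CPM in shNSD2, below the level of 3 counts. Of fibroblast and endothelial markers, 2 of 3 tested were higher and 1 lower, with a sum of 24.8 to 27.8 CPM in shCTR and 34.4 to 38.4 CPM in shNSD2. COL1A1 held most of that sum, at 19.7 CPM in shCTR and 28.2 CPM in shNSD2, followed by VWF (5.61 and 7.56 CPM). COL3A1 was the lower gene (1.20 and 0.252 CPM), and the untested markers of this list were near or below the level of 3 counts. The part of these markers in the results was not tested, and in bulk RNA fewer cells of a type cannot be told apart from less RNA per cell.

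LPL and MGLL were selected on their log2 fold change between shNSD2 and shCTR in this table, so their values are a description and carry no test here. The other 8 genes were added for their roles, with earlier results of these data known. Of the 10, 9 passed the low-count filter, and of these 3 were called higher (MGLL, PNPLA2 and DGAT1), 2 lower (LPL and LIPA) and 4 were not called (LIPE, LIPG, PLIN3 and ABHD5). Since the choice used this comparison, nothing is read from that count beside the 30.7% of all genes. The median log2 fold change of the 9 was -0.22, against 0.01 over all genes tested, and for the same reason nothing is read from it. PLIN2 is too low to judge, and LIPE and LIPG rest on 18 to 72 counts per library.

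**Figure D1:**
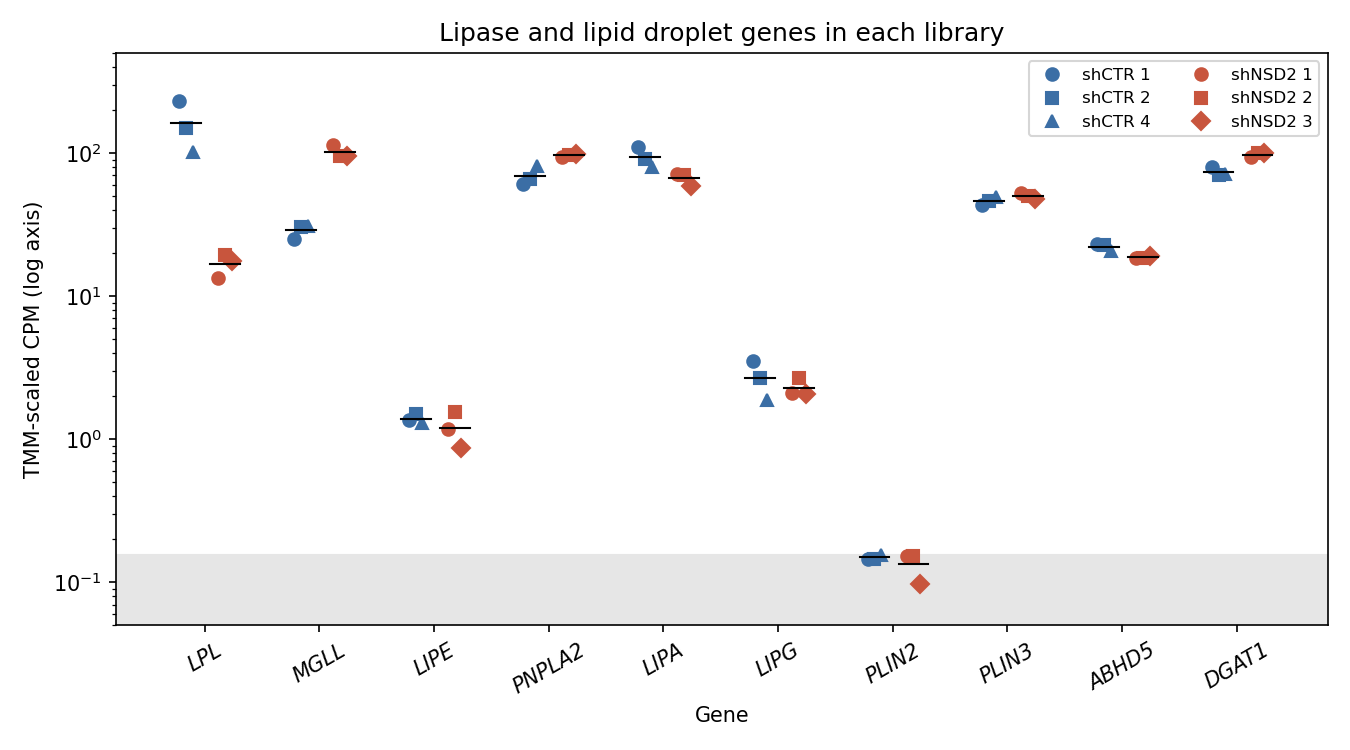
Level of each of the 10 genes in each library, in TMM-scaled CPM on a log axis; black bars are group means and the grey band lies at or below the level of 3 counts. LPL and MGLL separate most widely and in opposite directions, and PLIN2 sits in the band in every library.

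LPL encodes lipoprotein lipase, the secreted enzyme that frees fatty acids from the triglyceride of circulating lipoproteins. Its level was 233, 149 and 102 CPM in shCTR 1, 2 and 4 and 13.4, 19.3 and 17.6 CPM in shNSD2 1, 2 and 3. Every knockdown library lay far below every control library, and the controls themselves differed, with shCTR 1 highest and shCTR 4 lowest. The group levels were 161 ± 66.1 and 16.8 ± 3.07 CPM (SD, n = 3 each), so 10.4% of the control level was left. The difference was -3.26 on the log2 scale (SE 0.268), a 9.61-fold fall, and ranked 16 by size among the 17160 genes. It was -2.91 to -3.51 whichever library was left out, -3.51 without shCTR 4 and -3.22 after a trend of level on GC content and gene length was removed. LPL (ENSG00000175445) lies on the plus strand of chromosome 8 of GRCh38 from 19901717 to 19967259.

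LIPG encodes endothelial lipase, a secreted relative of LPL that acts mainly on lipoprotein phospholipids. It held 72, 56 and 36 counts in shCTR 1, 2 and 4 and 41, 52 and 43 counts in shNSD2 1, 2 and 3. The groups overlapped, since shCTR 4 was the lowest of the 6 libraries. The means were 2.70 ± 0.822 and 2.28 ± 0.336 CPM (n = 3, SD), a log2 fold change of -0.25 with a 95% interval of -0.79 to 0.29 (edgeR adjusted p = 0.462). That interval spans both a fall and a small rise, and does not reach the fall of LPL. The log2 fold change of LIPG was -0.45 without shCTR 4 (edgeR adjusted p = 0.105) and -0.01 with the GC and length trend removed (edgeR adjusted p = 0.982). Within a library, LPL counts were 66.1, 55.1 and 54.5 times those of LIPG in shCTR 1, 2 and 4 and 6.39, 7.23 and 8.47 times in shNSD2 1, 2 and 3. No scaling between libraries enters that ratio, and its mean was 7.95-fold lower in shNSD2. LPL was selected on its fold change in these libraries, so this shift follows from that choice and is a description only.

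The other genes of the lipoprotein lipase axis include its folding factors, the proprotein convertases that cut it, its inhibitors and the receptors that take up lipoproteins. Of 25 listed, 22 had a row and 14 were tested, 7 lower and 0 higher, with a median log2 fold change of -0.35. Over all genes 15.2% were lower and 15.5% higher. The list was chosen with earlier results of these data known, so nothing is read from that difference. After adjustment DESeq2 and limma-voom also called 0 higher, while 1 was higher without shCTR 1. At an unadjusted p under 0.05 the main edgeR fit called 0 higher. At that unadjusted threshold, 1 was higher with upper-quartile scaling, limma-voom, no low-count filter or the GC and length trend removed. With that trend removed, 5 were lower after adjustment. Lower genes numbered 4 without shCTR 1, 3 without shCTR 2, shNSD2 2 or shNSD2 3, 5 without shNSD2 1 and 8 without shCTR 4. SORL1, a sorting receptor that carries LPL within the cell, held 30.1, 21.1 and 10.5 CPM in shCTR 1, 2 and 4 and 6.48, 4.78 and 3.59 CPM in shNSD2 1, 2 and 3. Its log2 fold change was -2.06 (SE 0.337, edgeR adjusted p = 0.00272), and as with LPL the control libraries spread widely with shCTR 4 lowest. The related sorting receptor gene SORT1 fell by 0.88 in log2 units, from 50.6 ± 15.2 to 27.6 ± 3.55 CPM (n = 3, SD; edgeR adjusted p = 0.00857). FURIN, a convertase that cuts and inactivates LPL, fell by 0.42 (edgeR adjusted p = 0.00763). SEL1L, an adaptor of endoplasmic reticulum degradation that helps LPL leave that compartment, fell by 0.61, from 226 ± 53.2 to 148 ± 12.7 CPM (n = 3, SD; edgeR adjusted p = 0.0164), and its call was lost without shCTR 2, shNSD2 2 or shNSD2 3. The LPL maturation factor gene LMF1 (log2 fold change 0.32, edgeR adjusted p = 0.126) and the LPL inhibitor gene ANGPTL4 (-0.24, edgeR adjusted p = 0.346) were not called. GPIHBP1, which holds LPL on capillary endothelium, was below the filter at 0.213 CPM in shCTR and 0.269 CPM in shNSD2. These last 3 were named after their values were seen, for their direct contact with LPL.

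MGLL encodes monoacylglycerol lipase, which takes the last fatty acid from glycerol and also breaks down an endocannabinoid. Its level was 25.0, 30.3 and 31.1 CPM in shCTR 1, 2 and 4 and 114, 95.7 and 95.9 CPM in shNSD2 1, 2 and 3. All knockdown libraries lay above all controls, and both groups were tight. The group levels were 28.8 ± 3.32 and 102 ± 10.5 CPM (SD, n = 3 each), a log2 difference of 1.82 (SE 0.112) or a 3.54-fold rise. It was 1.72 to 1.88 whichever library was left out, 1.88 without shCTR 4 and 1.89 with the GC and length trend removed. In contrast to LPL, shCTR 4 lay with the other controls: it stood at 9.21% of the way from shCTR 1 and 2 to the knockdown libraries for MGLL and at 24.9% for LPL, on the scale of log2 (CPM + 0.5). MGLL (ENSG00000074416) lies on the minus strand of chromosome 3 from 127689062 to 128052190.

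Counts of LPL were 9.31, 4.91 and 3.29 times those of MGLL in shCTR 1, 2 and 4, and 0.117, 0.202 and 0.184 times in shNSD2 1, 2 and 3. The ratio was therefore 34.8-fold lower on average in the knockdown libraries, with no overlap between groups, and gene length cancels in that comparison. Both genes were selected on their fold change in these libraries, so this shift follows from that choice and is a description only.

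Of 30 other hydrolases of monoacylglycerol, diacylglycerol and sterol esters, 23 had a row and 19 were tested, 3 higher and 1 lower, where 15.5% and 15.2% of all genes were. The median log2 fold change was -0.12. The count depended on the processing: the list held 3 higher and 6 lower without shCTR 4, and 5 higher and 7 lower with the GC and length trend removed. The carboxylesterase gene CES3 rose from 4.19 ± 0.174 to 10.4 ± 1.96 CPM, and LIPH, which encodes a phospholipase of the LPL family, from 2.11 ± 0.440 to 4.45 ± 0.371 CPM (n = 3, SD; edgeR adjusted p = 7.91e-04 and 0.00385). PNPLA7, a lysophospholipase gene related to PNPLA2, rose by 0.34 (edgeR adjusted p = 0.0183), a call lost without shCTR 2, shNSD2 2 or shNSD2 3. NCEH1, a hydrolase of cholesterol esters, fell by 0.71 (edgeR adjusted p = 0.0135), and its call was lost without shNSD2 3. PNPLA6, the most abundant of the list at 138 CPM in shCTR, was not called (-0.18, edgeR adjusted p = 0.231), but was called lower without shCTR 4 (-0.28, edgeR adjusted p = 0.0133). ABHD6 (-0.16, edgeR adjusted p = 0.228) and ABHD12 (-0.13, edgeR adjusted p = 0.276), which share the substrate of MGLL, were not called either. The diacylglycerol lipase genes DAGLA (-0.23, edgeR adjusted p = 0.0956) and DAGLB (-0.21, edgeR adjusted p = 0.217), which make that substrate, were also not called. These 4 were named after their values were seen.

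PNPLA2 encodes adipose triglyceride lipase, which starts the breakdown of droplet triglyceride. Its level was 61.1, 66.3 and 81.4 CPM in shCTR 1, 2 and 4 and 93.1, 96.7 and 98.5 CPM in shNSD2 1, 2 and 3. The groups did not overlap, but shCTR 4 lay 59.7% of the way to the knockdown libraries. PNPLA2 rose 1.38-fold, from 69.6 ± 10.5 to 96.1 ± 2.75 CPM (n = 3, SD), a log2 fold change of 0.47 (SE 0.108, edgeR adjusted p = 0.0107). Without shCTR 4 the log2 fold change was 0.59. The call was lost without shCTR 2 (0.43, edgeR adjusted p = 0.0541) and with the GC and length trend removed (0.27, edgeR adjusted p = 0.0521), in a range of adjusted p over the alternatives from 2.65e-05 to 0.0541. PNPLA2 (ENSG00000177666) lies on chromosome 11 from 818902 to 825573, plus strand.

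ABHD5 encodes the protein that activates PNPLA2 at the droplet surface. It held 23.1, 22.7 and 20.8 CPM in shCTR 1, 2 and 4 and 18.6, 18.5 and 19.1 CPM in shNSD2 1, 2 and 3. The groups did not overlap, although the difference of -0.25 on the log2 scale (95% interval -0.45 to -0.05) had an edgeR adjusted p = 0.0602 and was not called. Groups without overlap were seen in 46.8% of all genes tested. Without shCTR 4, ABHD5 was called lower (-0.29, edgeR adjusted p = 0.0180), and with the GC and length trend removed it was at -0.06 (edgeR adjusted p = 0.619), the ends of the range of its adjusted p over the alternatives. Counts of PNPLA2 were 2.65, 2.91 and 3.91 times those of ABHD5 in shCTR 1, 2 and 4 and 5.003, 5.23 and 5.17 times in shNSD2 1, 2 and 3. The ratio of lipase to activator transcript was 1.63-fold higher on average in the knockdown libraries, from counts without any correction for GC content. With the GC and length trend removed, the log2 fold change was 0.27 for PNPLA2 and -0.06 for ABHD5. The 2 genes then differed less, and neither was called. ABHD5 (ENSG00000011198) lies on chromosome 3 from 43690108 to 43734371, plus strand.

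LIPE encodes hormone-sensitive lipase, which acts on diacylglycerol after PNPLA2. It held only 28, 31 and 25 counts in shCTR 1, 2 and 4 and 23, 30 and 18 counts in shNSD2 1, 2 and 3. The groups overlapped, and the level was 1.39 ± 0.0970 CPM against 1.20 ± 0.334 CPM (n = 3, SD). The log2 fold change of -0.22 had a 95% interval of -0.79 to 0.35 (edgeR adjusted p = 0.537), which spans both a fall and a rise. It was -0.26 without shCTR 4 (edgeR adjusted p = 0.489) and -0.32 with the GC and length trend removed (edgeR adjusted p = 0.372).

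LIPA encodes lysosomal acid lipase, which splits the triglyceride and cholesterol esters that reach the lysosome. Its level was 111, 90.9 and 79.9 CPM in shCTR 1, 2 and 4 and 71.8, 69.8 and 59.1 CPM in shNSD2 1, 2 and 3. The groups did not overlap, and shCTR 4 lay 55.7% of the way to the knockdown libraries. LIPA fell 1.40-fold, from 93.9 ± 15.7 to 66.9 ± 6.82 CPM (n = 3, SD), a log2 fold change of -0.49 (SE 0.125, edgeR adjusted p = 0.0163). It was -0.59 without shCTR 4 and -0.42 with the GC and length trend removed. The call was lost without shNSD2 3 (-0.41, edgeR adjusted p = 0.0763), in a range over the alternatives from 1.68e-04 to 0.0763. Counts of LIPA were 1.81, 1.37 and 0.982 times those of PNPLA2 in shCTR 1, 2 and 4 and 0.771, 0.722 and 0.600 times in shNSD2 1, 2 and 3, so the ratio of lysosomal to droplet lipase transcript was lower in every knockdown library. LIPA (ENSG00000107798) lies on chromosome 10 from 89213569 to 89414557, minus strand.

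**Figure D2:**
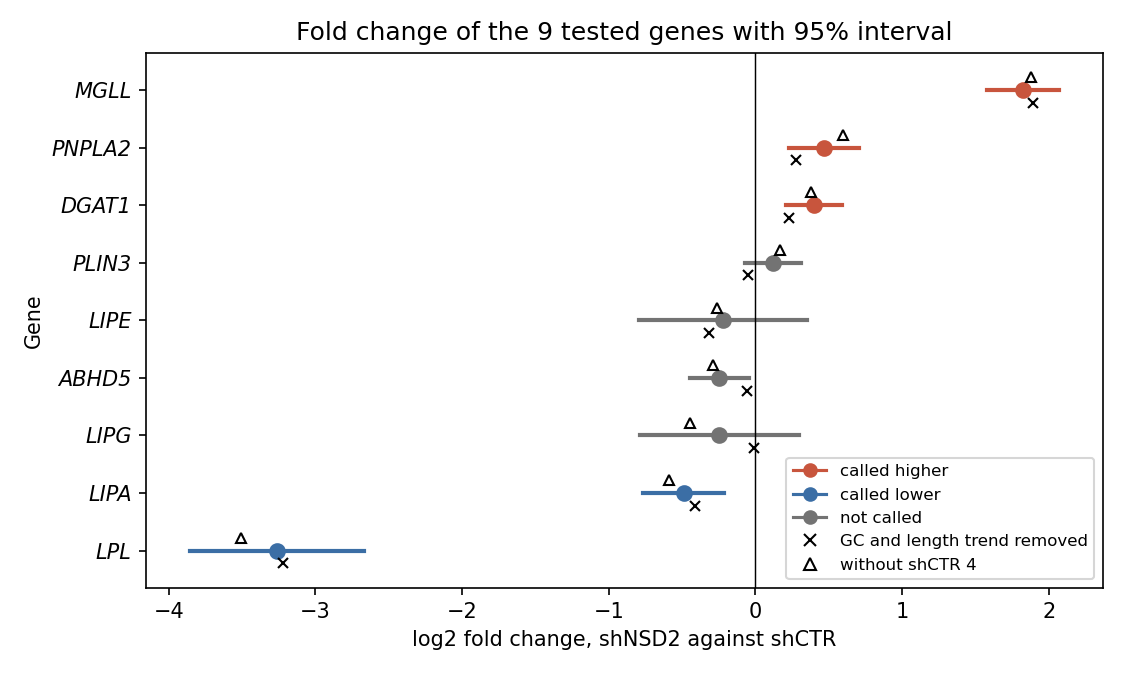
Log2 fold change of the 9 tested genes, shNSD2 against shCTR (points, with 95% intervals as lines), coloured by call; crosses give the value with the GC and length trend removed and triangles the value without shCTR 4. MGLL and LPL lie far from 0 in each, and PNPLA2, DGAT1 and ABHD5 move toward 0 with the trend removed.

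PNPLA2 and LIPA moved in opposite directions, and the 250 bases before a start site of each are shown for comparison, from RefSeq on GRCh38.p14. The PNPLA2 window is chr11:818664-818913 on the plus strand. The LIPA window is chr10:89251776-89252025 on the minus strand, at the most downstream of 3 starts that RefSeq lists. Capitals mark the GC box GGGCGG and the CCAAT box CCAAT, each searched on both strands.
PNPLA2: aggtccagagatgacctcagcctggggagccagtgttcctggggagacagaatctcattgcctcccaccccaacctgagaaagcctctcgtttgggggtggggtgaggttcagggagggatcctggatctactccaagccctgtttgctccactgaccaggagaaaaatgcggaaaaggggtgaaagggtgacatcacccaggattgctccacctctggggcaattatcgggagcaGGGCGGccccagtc
LIPA: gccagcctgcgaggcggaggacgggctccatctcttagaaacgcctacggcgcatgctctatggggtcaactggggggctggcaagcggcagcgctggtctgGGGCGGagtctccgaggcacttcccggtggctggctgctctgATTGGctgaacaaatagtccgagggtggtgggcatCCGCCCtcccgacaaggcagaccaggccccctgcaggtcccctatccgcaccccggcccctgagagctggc
The LIPA window shown holds 2 GC boxes and 1 CCAAT box, and the PNPLA2 window 1 GC box and no CCAAT box. That contrast depends on the start chosen: of the windows at the other LIPA starts, one holds 1 GC box and no CCAAT box, the same count as PNPLA2, and one holds no GC box and 3 CCAAT boxes. Of 35116 promoter windows of this length, 42.6% hold a GC box and 32.0% a CCAAT box. The LIPA window has 16 CG pairs and the PNPLA2 window 4, more than 59.0% and 29.3% of all windows respectively. Neither holds an E-box CACGTG (6.34% of windows), an AP-1 site TGANTCA (6.57%), a cAMP response element TGACGTCA (1.65%) or a forkhead site TGTTTAC (2.98%). A match is a description of letters and not of binding.

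DGAT1 encodes diacylglycerol acyltransferase, which adds the last fatty acid when triglyceride is made. Its level was 80.4, 70.0 and 71.6 CPM in shCTR 1, 2 and 4 and 93.5, 99.9 and 99.5 CPM in shNSD2 1, 2 and 3. The groups did not overlap, and shCTR 4 lay within the other controls. DGAT1 rose 1.32-fold, from 74.0 ± 5.61 to 97.6 ± 3.59 CPM (n = 3, SD), a log2 fold change of 0.40 (SE 0.0868, edgeR adjusted p = 0.00827). It was 0.38 without shCTR 4, and the call was lost with the GC and length trend removed (0.23, edgeR adjusted p = 0.0619), in a range over the alternatives from 0.00178 to 0.0619. DGAT1 and PNPLA2, which fill and empty the droplet, had a ratio of counts of 1.08 ± 0.220 in shCTR and 1.02 ± 0.0154 in shNSD2 (n = 3, SD). DGAT1 (ENSG00000185000) lies on chromosome 8 from 144314584 to 144326910, minus strand.

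The longest annotated transcript had a GC content of 64.5% for PNPLA2, 63.2% for DGAT1 and 58.0% for MGLL, against 43.7% for LPL and 42.8% for LIPA. Of the genes not called, LIPE (60.9%) and PLIN3 (58.4%) were as rich in G and C as MGLL, while LIPG was at 44.3% and ABHD5 at 37.5%. Over 11205 genes averaging 5 CPM or more, the log2 fold change had a Spearman correlation of 0.28 with GC content and of -0.38 with exon length, across genes, which are not independent replicates. The value with that trend removed is given for each of the 10 genes that was tested.

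The list of other genes of triglyceride and sterol ester synthesis holds 23 symbols, with 18 found in the counts and 16 tested. The fit called 3 higher and 3 lower, with a median log2 fold change of -0.02. That is 37.5% called, against 30.7% over all genes (15.5% higher and 15.2% lower). AGPAT2, which adds the fatty acid at the middle position of glycerol, rose from 16.6 ± 2.86 to 29.4 ± 0.386 CPM (n = 3, SD; edgeR adjusted p = 0.00171). AGPAT5, an enzyme of the same family, fell by 0.55 and the first enzyme of the route, GPAM, by 0.40 (edgeR adjusted p = 0.0111 and 0.00870), and the call of GPAM was lost with the GC and length trend removed (-0.19, edgeR adjusted p = 0.0750). SOAT1, which makes the cholesterol esters stored in droplets, held 146, 104 and 89.6 CPM in shCTR 1, 2 and 4 and 46.0, 60.1 and 52.8 CPM in shNSD2 1, 2 and 3. It fell by 1.09 in log2 units (SE 0.167, edgeR adjusted p = 0.00204), with no overlap between groups. LPIN1, a phosphatidate phosphatase gene and the most abundant of the list, was at 171 ± 28.6 and 169 ± 30.7 CPM (n = 3, SD; edgeR adjusted p = 0.919).

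PLIN3 encodes a perilipin found on small and new droplets and was the main perilipin transcript measured. Its level was 43.3, 46.4 and 49.3 CPM in shCTR 1, 2 and 4 and 52.7, 50.3 and 47.8 CPM in shNSD2 1, 2 and 3. The groups overlapped, and the log2 fold change of 0.12 had a 95% interval of -0.07 to 0.31 (edgeR adjusted p = 0.316). It was 0.16 without shCTR 4 (edgeR adjusted p = 0.118) and -0.050 with the GC and length trend removed (edgeR adjusted p = 0.655). PLIN2 encodes the perilipin that coats droplets in most cells outside fat tissue. Its row held 3 counts in each library except shNSD2 3, which held 2, or 17 counts over all 6 libraries. That is at or under the level of 3 counts (0.145 to 0.156 CPM, counting error only), so no fold is given. How reads were assigned to genes is not stated in these sources, so a row this low does not show that the cells lack the transcript.

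Of the other droplet coat and lipolysis control genes, 22 of 27 had a row and 18 were tested. Among these, 3 were higher and 4 lower, where 15.5% and 15.2% of all genes were, with a median of -0.03. PLIN4, another perilipin, rose from 2.55 ± 0.0883 to 4.96 ± 1.42 CPM (n = 3, SD; edgeR adjusted p = 0.00943), with 6.58 CPM in shNSD2 1 and about 4 CPM in the other knockdown libraries. TMEM159, which encodes a partner of seipin in droplet formation, rose by 0.53 (edgeR adjusted p = 0.0133), a call lost without shCTR 2 or shNSD2 1. FAF2, a droplet protein that recruits the segregase VCP and restrains PNPLA2, fell by 0.61 from 260 ± 41.9 to 171 ± 8.18 CPM (n = 3, SD; edgeR adjusted p = 0.00549). METTL7A, a droplet-associated methyltransferase gene, fell by 0.63 (edgeR adjusted p = 0.0124), a call lost without shNSD2 3. VCP was at 633 ± 52.2 and 615 ± 19.2 CPM (n = 3, SD; edgeR adjusted p = 0.781). The PNPLA2 inhibitor gene HILPDA was not called (-0.16, edgeR adjusted p = 0.235), and the related inhibitor gene G0S2 was below the filter, both named after their values were seen.

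To compare genes with each other, counts were divided by exon length and scaled to the same sum in each library, which gives a per-length level. In shCTR the order was LPL (152), LIPA (78.2), PNPLA2 (73.3), DGAT1 (73.1), PLIN3 (66.9), ABHD5 (12.001), MGLL (9.86), LIPE (1.09), LIPG (0.846) and PLIN2 (0.119). Between neighbours among the 5 most abundant, among ABHD5 and MGLL, and among LIPE and LIPG, the values of the 3 control libraries overlapped. In shNSD2 the order was PNPLA2 (96.6), DGAT1 (91.3), PLIN3 (69.0), LIPA (52.7), MGLL (33.2), LPL (14.8), ABHD5 (9.58), LIPE (0.888), LIPG (0.672) and PLIN2 (0.102), and only LIPE and LIPG overlapped as neighbours. LPL thus went from place 1 to place 6 and MGLL from 7 to 5. The level and place of MGLL depend on the length used. By longest transcripts it was 17.1 in shCTR, above ABHD5 (12.2) at place 6, and 56.9 in shNSD2. The merged exons of MGLL span 11849 bases and its longest transcript 4941. With that length LIPA (66.4) also lay above PLIN3 (59.4) in shNSD2, the reverse of the order given.

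Of the summed per-length level of the 6 lipases LPL, MGLL, LIPE, PNPLA2, LIPA and LIPG, LPL made up 56.4%, 46.6% and 36.6% in shCTR 1, 2 and 4. In shNSD2 1, 2 and 3 its share was 5.87%, 8.41% and 8.03%. PNPLA2 took the largest share in each knockdown library, at 48.6 ± 2.29% against 24.6 ± 8.19% in shCTR, and MGLL went from 3.29 ± 0.956% to 16.7 ± 1.62% (n = 3, SD). LIPA held nearly the same share, 25.0 ± 0.879% and 26.4 ± 2.17%, although its own per-length level fell from 78.2 to 52.7. That of PNPLA2 went from 73.3 to 96.6. All shares are parts of a common sum, so a lower LPL raises the others. LPL and MGLL were selected on their fold change in these libraries, so the shift in shares is a description only. The sum itself went from 315 ± 77.5 to 199 ± 6.49, and shCTR 4, at 245, was the control nearest to the knockdown libraries. These shares rest on merged exon length and would differ with another length. By longest transcripts LPL was at 73.4 in shCTR 4, below PNPLA2 (82.4) and LIPA (79.3).

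**Figure D3:**
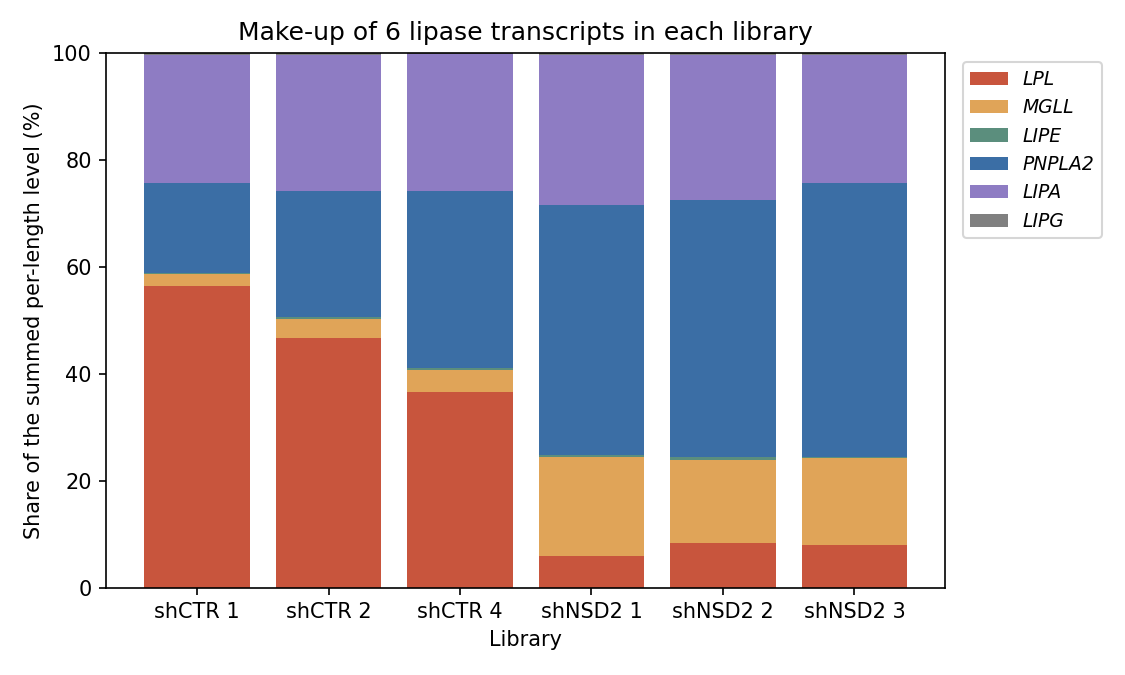
Share of each of 6 lipase transcripts in their summed per-length level (percent), 1 bar per library; LIPE and LIPG are too small to see. With merged exon length, the LPL part is 36.6% or more in each control library and 8.41% or less in each knockdown library. LPL was selected on its fold change in these libraries.

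Of 18 listed genes of fatty acid uptake and activation, 17 were found and 14 tested. Of these, 4 were higher and 3 lower (median -0.15), where 15.5% and 15.2% of all genes were. The transport protein gene SLC27A1 rose from 25.5 ± 1.29 to 37.5 ± 3.39 CPM and SLC27A5 from 28.3 ± 2.96 to 39.9 ± 1.34 CPM (n = 3, SD; edgeR adjusted p = 0.00329 and 0.00503). FABP6, a bile acid binding protein gene of the fatty acid binding family, rose from 0.365 ± 0.105 to 1.19 ± 0.100 CPM (n = 3, SD; edgeR adjusted p = 0.00419), close to the count floor. ACSL4, which activates arachidonate, fell by 1.49 in log2 units (edgeR adjusted p = 0.00506), with 7.63, 6.65 and 3.34 CPM in shCTR 1, 2 and 4 and 1.78, 2.31 and 2.18 CPM in shNSD2 1, 2 and 3. ACSL3, the droplet-associated acyl-CoA synthetase gene and the most abundant of the list, was at 1821 ± 375 and 1509 ± 125 CPM (n = 3, SD) and was not called (-0.27, edgeR adjusted p = 0.208). Without shCTR 4 it was called lower (-0.42, edgeR adjusted p = 0.00605).

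All but 1 of 26 listed regulators of lipases and droplets had a row, and all 25 were tested. Among these, 5 were higher and 3 lower (median 0.14), where 15.5% and 15.2% of all genes were. PPARG, a nuclear receptor that drives fat storage genes and LPL in adipocytes, held 5.62, 5.98 and 3.96 CPM in shCTR 1, 2 and 4 and 2.601, 2.11 and 1.65 CPM in shNSD2 1, 2 and 3. It fell by 1.30 in log2 units (SE 0.222, edgeR adjusted p = 0.00334), with no overlap between groups. CEBPB, a transcription factor of early fat cell differentiation, rose from 47.3 ± 9.85 to 83.4 ± 5.60 CPM (n = 3, SD; edgeR adjusted p = 0.00261). The oxysterol receptor gene NR1H2 rose by 0.57 and PRKAR2B, a regulatory subunit of the kinase that activates LIPE, fell by 0.69 (edgeR adjusted p = 0.00723 and 0.00394). SREBF1, the most abundant of the list, was at 1081 ± 132 and 1127 ± 95.2 CPM (n = 3, SD; edgeR adjusted p = 0.735).

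Over all 6 lists, 106 genes were tested, 18 higher and 21 lower, or 36.8% called against 30.7% of all genes, with a median of -0.05. The lists were chosen with earlier results of these data known, so nothing is read from these counts beside the share of all genes. These counts were moved most by single libraries: 11 were higher without shNSD2 1, 11 were lower without shNSD2 3 and 30 were lower without shCTR 4.

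**Figure D4:**
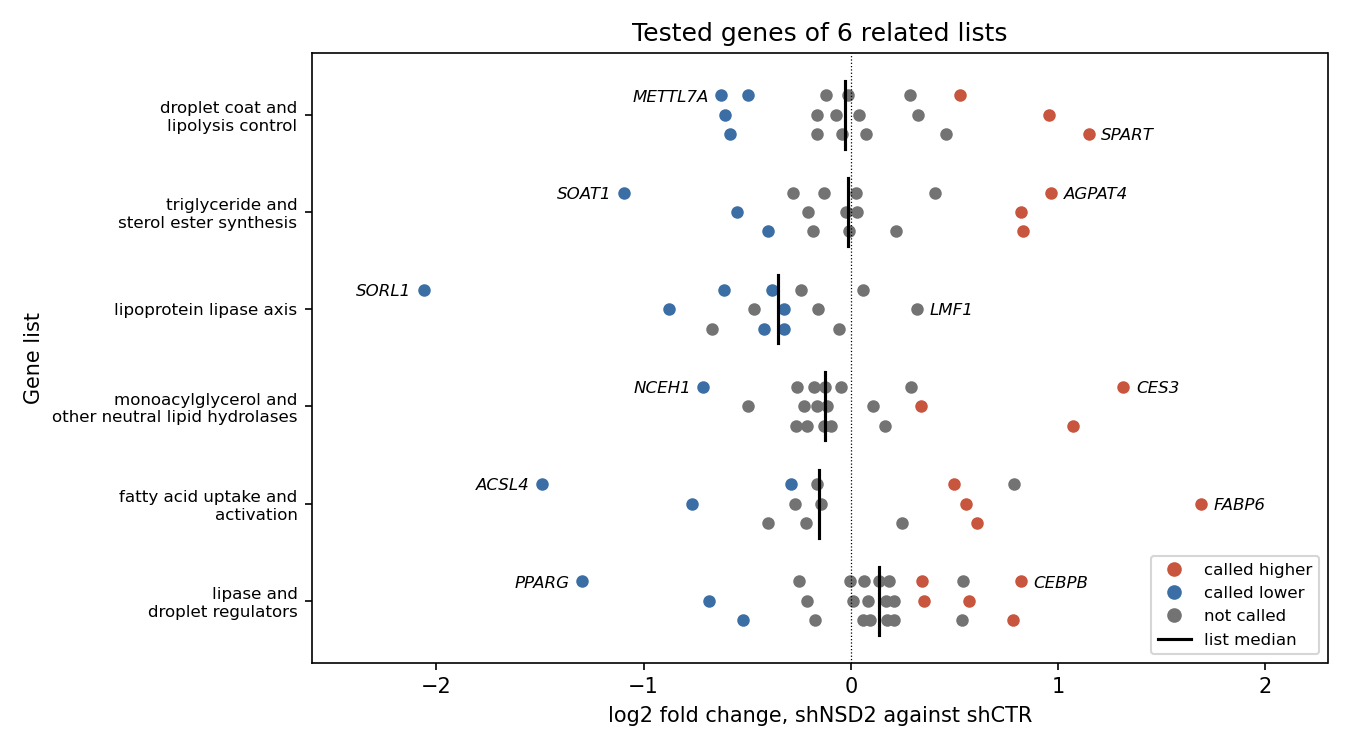
Log2 fold change of each tested gene of the 6 lists, shNSD2 against shCTR, coloured by call, with the list median as a black line; the lowest and highest gene of each list is named. The lipoprotein lipase axis has 7 genes called lower and 0 called higher by edgeR, in a list chosen with earlier results known.

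As a description, the genes whose log2 CPM followed LPL most closely over the 6 libraries, among 11217 genes averaging 5 CPM or more, were ZNF512B, FIGNL1 and MMS22L (Pearson r of 0.9999, 0.999 and 0.999). Those closest to MGLL were DALRD3, CDKN1A and ELMO3 (0.999, 0.999 and 0.998). LPL and MGLL themselves stood at -0.99 to each other, and of the 6 other genes described here that averaged 5 CPM or more, ABHD5 had the highest value with LPL (0.97). All points share the same 6 libraries and the split into 2 groups, and the likeness is of shape and not of size, since the log2 fold change was -0.41 for ZNF512B and -3.26 for LPL.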

How the data were processed

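The authors' deposited values are raw counts, 1 column per library: they are whole numbers, and library totals differ, so no scaling was applied. CASAVA 1.8.2, STAR 2.6.0a and GRCh38 are listed, per the submitters' processing notes; how reads were counted, on which annotation and strand, and with which row filter is not stated there. The library kit was KAPA mRNA HyperPrep, per the labels' protocols. Whether reads of overlapping genes were separated by strand is therefore unknown, and 6 of the 10 genes (LIPE, PNPLA2, LIPA, PLIN3, ABHD5 and DGAT1) share exon bases with another gene in GENCODE 29.

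Counts of the whole table were fitted with edgeR 4.0.16 in R 4.3.3: filterByExpr by group, TMM, and the quasi-likelihood test without a covariate. P-values were adjusted by Benjamini-Hochberg over 17160 genes, and an adjusted p under 0.05 was called. Standard errors came from the fold change and the F statistic. Per-length levels divide counts by merged exon length. Coordinates and GC content came from GENCODE 29. RefSeq promoter windows matched 7 of the 10 genes.

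The members and gene lists were chosen with earlier results of these data known. Named were all 10 genes, NSD2, from each of 6 related lists the 4 called genes of smallest p and the one of highest CPM, and the 3 genes most like LPL and MGLL. Marker lists were prostate luminal, prostate basal, adipocyte, macrophage, and fibroblast and endothelial. Alternatives were other scalings, DESeq2 1.42.0, limma-voom (limma 3.58.1), other filters, the replicate block, each library left out, removal of the GC and length trend (mgcv 1.9.3), and another gene length.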

Additional observations from a re-analysis of the deposited data

How the results depend on the processing

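Over the 15 alternatives the log2 fold change of LPL was -3.52 to -2.91 and that of MGLL 1.72 to 1.92, a description only, since both were chosen on this difference in these libraries. Of the 10 genes, 3 were higher and 2 lower under every alternative that left out no library, except with the GC and length trend removed. There 1 was higher, since the calls of PNPLA2 and DGAT1 were lost. The replicate block is among these alternatives, but its group difference rests on libraries 1 and 2 of each group only. Leaving out a library gave 2 to 3 higher (2 without shCTR 2) and 1 to 3 lower (1 without shNSD2 3, 3 without shCTR 4). For the 6 related lists, leaving out a library gave 11 to 22 higher genes and 11 to 30 lower ones.

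Values near 0 changed sign. PLIN3 went to -0.050 with the trend removed. LPIN1 went to 0.17 with the trend removed and ranged from -0.18 to 0.061 with a library left out, being above 0 without shCTR 1, shCTR 2, shNSD2 2 or shNSD2 3. VCP went to 0.040 with the replicate block and ranged from -0.096 to 0.027, the latter without shCTR 4. SREBF1 ranged from -0.021 to 0.15 and was below 0 without shCTR 4 or shNSD2 1. The cause was not tested.

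The groups share only the numbers 1 and 2, whose deviations from the group means correlated at 0.04 and -0.17. Deviations within a group are tied to one another, so these values cannot decide whether equal numbers mark a pair. Other pairs ran from -0.43 (shCTR 2 with shNSD2 3) to 0.47 (shCTR 2 with shNSD2 1). Among them were 0.42 for shCTR 4 with shNSD2 3 and 0.26 for shCTR 1 with shNSD2 2. Whether such libraries share a batch was not tested. In the replicate block, shCTR 4 and shNSD2 3 each have a number of their own and add nothing to the group difference. It thus compares libraries 1 and 2 of each group, paired by number. With it, 3 of the 10 genes were higher and 2 lower, and of the related genes 22 were higher and 26 lower. Among named genes the block lost the call of PNPLA7 (0.24, edgeR adjusted p = 0.0770, in a range over its alternatives that includes 0.0918 without shNSD2 3) and called ACSL3 (-0.40). Depth limits PLIN2, which was not tested, and LIPE and LIPG rest on 18 to 72 counts per library.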
